A study of Mus musculus with 166 samples.

Results

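The 55 genes described here are the cadherins and protocadherins of the mouse cerebellum, among 16525 genes tested in all. The rule uses a name and a level: a symbol that starts with Pcdh, or with Cdh and a digit, and at least 0.5 CPM (the count of a gene divided by its library total and scaled to a common size) in at least 8 libraries. Of 59 such symbols 55 passed, namely 20 Cdh genes, 12 protocadherins outside the clusters, 21 genes of the Pcdhb cluster, and 1 row each for the Pcdha and Pcdhg clusters. The nearest genes outside the filter were Pcdhb1, Cdh26, Cdh17 and Cdh16, which reached 0.480, 0.362, 0.138 and 0.0796 CPM in their highest library. Just inside it were Cdh9, which reached 0.5 CPM in 33 libraries, and Pcdh12, which did so in 119. A total of 43 members reached that level in all 166 libraries.

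The libraries hold poly(A) mRNA of whole cerebellum from C57BL/6 mice of the Htt allelic series. Apart from WT the mice are heterozygous: 1 Htt allele is endogenous, and the other carries human HTT exon 1 with a CAG repeat, in the lines Q20, Q80, Q92, Q111, Q140 and Q175. Controls were wild-type (WT) littermates of the Q20 line together with Q20 itself, which has a repeat of normal length. The Q175 line arose by spontaneous expansion within the Q140 line. Both sexes were taken at 2, 6 and 10 months, with 8 libraries in each of the 21 groups except Q111 and Q140 at 10 months, which had 7. The comparisons ask whether members change in each line, whether their level follows CAG length (Q), and whether it changes with age in the controls.

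Cadherins are calcium-dependent adhesion proteins that hold cells together, mostly by binding the same cadherin on the neighbouring cell. Classical cadherins, such as N-cadherin (Cdh2), connect to actin through catenins. The clustered protocadherins lie side by side in the genome, and single neurons use different subsets of them, which gives a neuron's surface an identity that takes part in self-avoidance of dendrites, best known from Purkinje cells and retinal amacrine cells. Each Pcdhb gene is a single large exon with its own promoter. Pcdha and Pcdhg isoforms instead join 1 of many variable exons to shared constant exons. The table used here holds 1 row for each of those clusters, under the symbols Pcdha11 and Pcdhgc4, and 34 other annotated Pcdha and Pcdhg identifiers were not analysed here. Under GENCODE vM21 the Pcdha row shares exon positions with 13 genes of its strand and the Pcdhg row with 25. No source states how reads of those exons were assigned. Whether these rows collect reads of the other isoforms is therefore not known. They are called the Pcdha row and the Pcdhg row here, and are not read as single isoforms or as whole clusters. The Pcdhb genes are near-identical in places, and the division of reads that match several of them is also unstated.

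Library totals ran from 23448896 to 43066080 counts. One property of the libraries touches most results below. In 24 of the 166 libraries long transcripts were under-represented, measured by a length index, the slope of a library's log2 deviation from the typical library on log2 transcript length (the longest transcript of each gene in GENCODE vM21). The index had a median of 0.0082 and fell to -0.643, and libraries under -0.05 are called libraries of low length index. They number 16 at 2 months (4 of them WT, 0 Q20), 4 at 6 months and 4 at 10 months (1 WT, 2 Q80 and 1 Q92), and among Q175 libraries 2 of 2 months and 0 of 6 or 10 months. Within groups, members correlated with this index at a median r of 0.80 over 166 libraries. Without the 24 libraries the median r was 0.13 over 142. Each main result is therefore given also without them. Sex markers went against the label in 2 libraries. Defining markers of the labelled tissue were present: 12 granule cell genes summed to a median of 5974 CPM and 12 Purkinje cell genes to 9469 CPM in WT at 10 months.

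Levels can be compared between genes in FPKM, which is scaled to transcript length. In WT at 10 months the Pcdhg row was highest with 146.5 ± 7.27 FPKM (SD, n = 8) and the Pcdha row second with 34.1 ± 0.898. Among genes with a row of their own, N-cadherin led with 27.6 ± 1.04 FPKM, followed by Pcdh9 with 21.5 ± 3.71, Cdh18, a type II cadherin, with 17.9 ± 1.08, and Pcdh1 with 16.5 ± 1.44. Cdh2 ranged from 26.2 to 28.7 FPKM and Pcdh9 from 15.7 to 27.0, so their libraries overlap, as do those of Cdh18 and Pcdh1. The lowest members were Cdh3 with 0.288 ± 0.0945, Cdh9 with 0.150 ± 0.0846 and Pcdh12 with 0.0938 ± 0.0259 FPKM, and those too overlap as neighbours. The medians were 1.73 FPKM for the 21 Pcdhb genes, 1.75 for the 12 other protocadherins and 3.54 for the 20 Cdh genes, beside 7.61 for all 16525 genes. Among Pcdhb genes the highest level was 5.26 FPKM (Pcdhb9) and the lowest 0.957 FPKM (Pcdhb2). The spread between WT libraries was smallest for the Pcdha row (CV 2.63%) and largest for Cdh6 (57.3%), with a median of 12.6%.

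**Figure D1:**
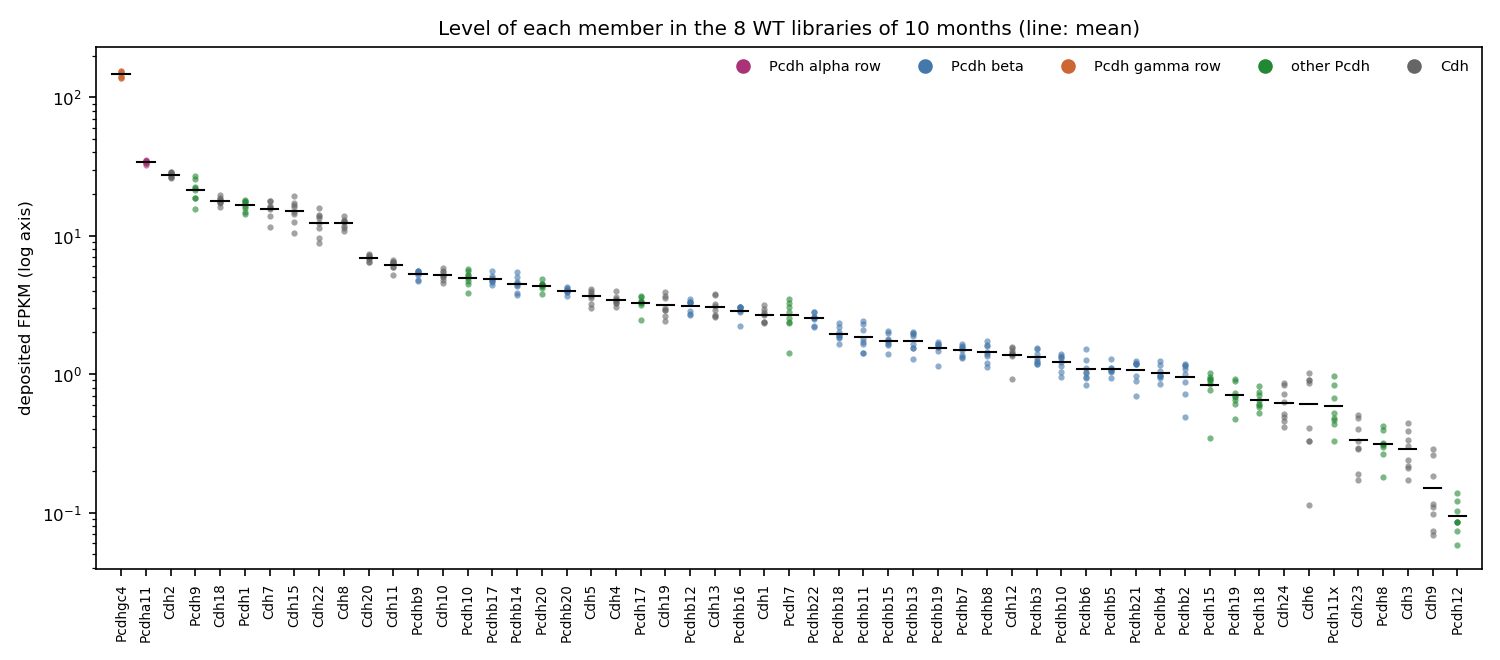
Deposited FPKM (log axis) of each of the 55 members in the 8 WT libraries of 10 months, 1 point per library, with the mean as a line and colours for the family. The Pcdhg row stands highest at 146.5 FPKM, the means of the Pcdhb genes lie between 0.957 and 5.26, and Pcdh12 is lowest at 0.0938.

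In Q175 at 10 months 9 of the 21 Pcdhb genes rose, by 1.12-fold to 1.28-fold, and so did Pcdh8, Pcdh10, Cdh15 and the type II cadherins Cdh8 and Cdh20, while Cdh12 fell. Against the 16 controls, 14 members were higher and 1 lower at an adjusted p under 0.05 (edgeR quasi-likelihood test, Benjamini-Hochberg over all 16525 genes). Over all genes tested 5.6% were called higher and 7.16% lower. The 14 consist of 9 of 21 Pcdhb genes, 2 of 12 other protocadherins and 3 of 20 Cdh genes, and the gene that fell was Cdh12. The Pcdha and Pcdhg rows were not called. Without the libraries of low length index 19 members were called higher and 7 lower, against 12.9% and 13.3% of all genes, and all 15 calls with all libraries were among them. The median log2 change was 0.22 for Pcdhb genes and 0.02 for the 32 members outside the clusters, beside -0.00497 for all genes.

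**Figure D2:**
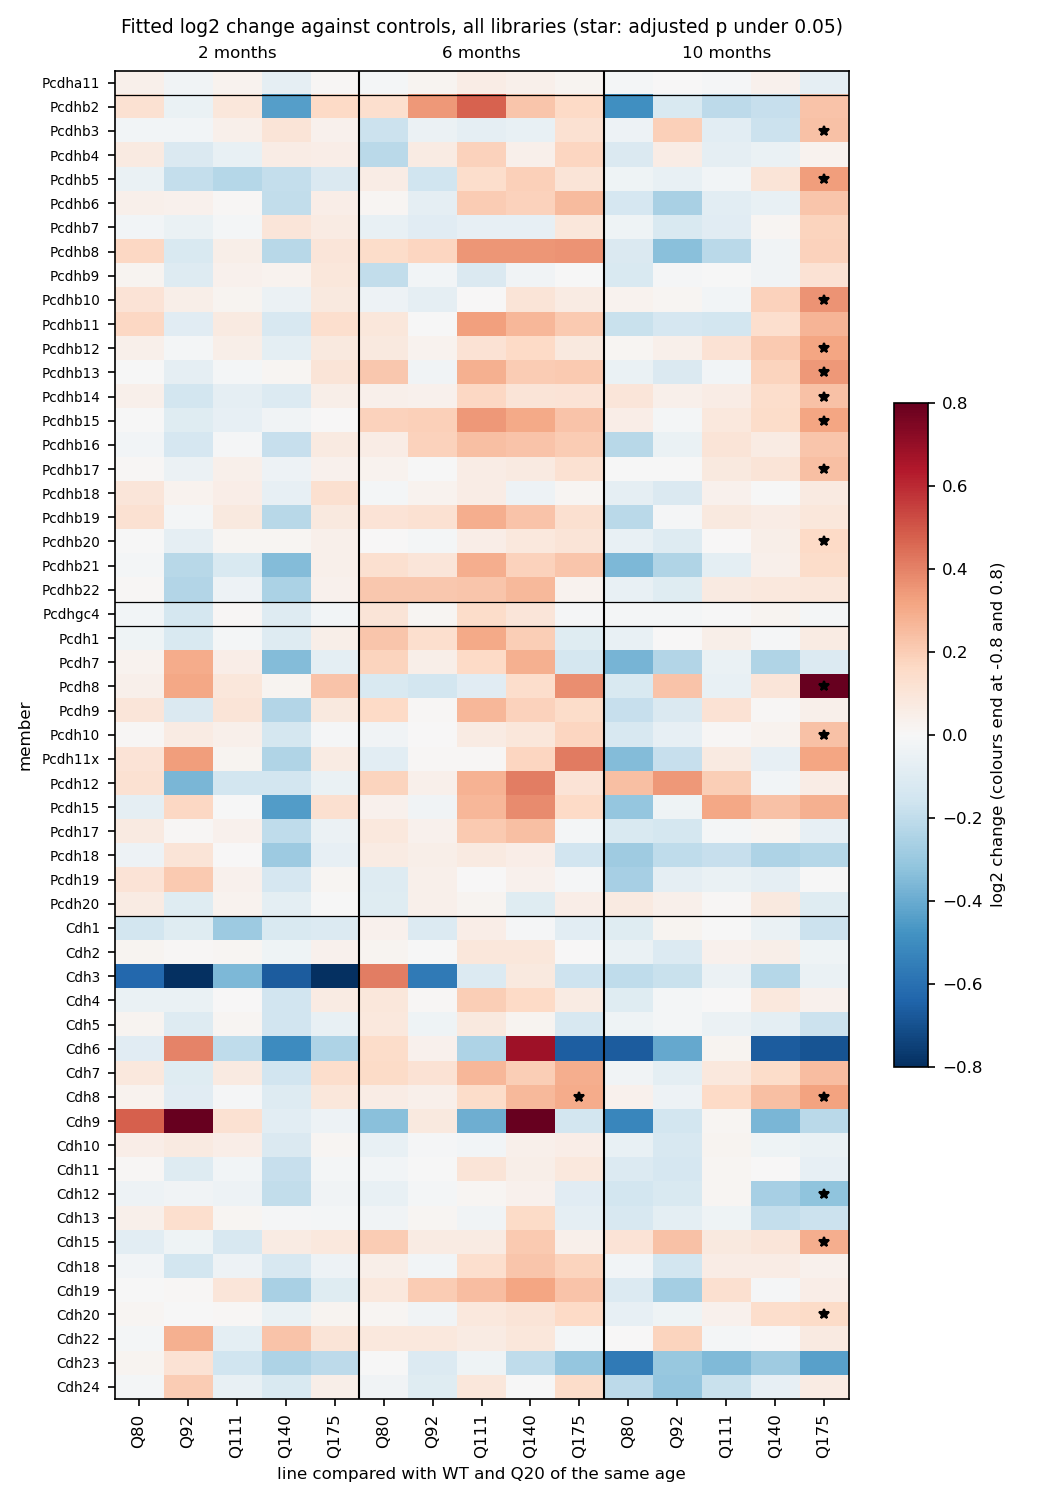
Fitted log2 change of each member (rows) in each line against controls of the same age (columns), all libraries, with colours that end at -0.8 and 0.8 and stars at adjusted p under 0.05. Controls are WT and Q20 at 2 and 10 months, while at 6 months the library name format in the fit sets Q175 against WT and the other lines against Q20. The 15 stars of Q175 at 10 months include 9 Pcdhb genes, Q175 at 6 months has 1 (Cdh8), and the 4 other lines have none.

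All 21 Pcdhb genes had a fitted change above 0 in Q175 at 10 months. Their summed level was 185.1 CPM in the lowest Q175 library, 191.9 in the median and 200.8 in the highest. The 16 control libraries lay between 158.8 and 173.6 with a median of 166.2, so the groups did not overlap. Sums in Q140 ran from 162.0 to 189.0 with a median of 169.7, and 3 of its 7 libraries lay above all controls. At 6 months 5 of 8 Q175 libraries lay above all controls, with sums of 154.6 to 187.9 and a median of 174.1. The 2-month Q175 sums, from 163.4 to 174.3 without libraries of low length index, were close to those of WT (156.4 to 173.0) and Q20 (149.9 to 165.8). The sum of the 20 Cdh genes did not overlap either, at 519.3 to 542.4 CPM in Q175 and 479.9 to 510.2 in controls at 10 months. At 6 months it was 535.8 to 556.2 in Q175 and 300.3 to 530.1 in controls. The sum of the 12 other protocadherins overlapped at 10 months, with 277.3 to 309.2 in Q175 and 231.8 to 313.9 in controls. These sums describe the genes and carry no test of their own.

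Among single Pcdhb genes the smallest p was that of Pcdhb17. Its level was 16.7 CPM in the lowest, 18.4 in the median and 19.6 in the highest Q175 library, against 14.4, 15.8 and 18.2 in WT and 13.5, 14.2 and 16.5 in Q20. All 8 Q175 libraries were above the control median and 5 above every control, so the ranges overlap a little. The fitted change was 0.24 on the log2 scale (SE 0.04, 1.18-fold, edgeR adjusted p = 5.92e-05). Pcdhb12 ran from 10.3 to 13.2 CPM in Q175 (median 12.3) and from 8.04 to 11.5 in controls (median 9.76), a log2 change of 0.32 (SE 0.06, edgeR adjusted p = 0.000247). The highest fitted change was that of Pcdhb10, 0.36 (SE 0.09, 1.28-fold), where 7 of 8 Q175 libraries exceeded every control: they spanned 3.70 to 4.77 CPM against 2.74 to 3.998. Pcdhb13 (0.35), Pcdhb5 (0.34), Pcdhb15 (0.32), Pcdhb3 (0.24), Pcdhb14 (0.23) and Pcdhb20 (0.16) were the others called, with adjusted p-values of 0.00342 to 0.0387 from the same edgeR fit. Each had 7 or 8 of 8 Q175 libraries above the control median. Between alternatives, Pcdhb17 and Pcdhb12 behaved differently from Pcdhb20: the first was called under all 16 other settings and the second under 15, while Pcdhb20 was called under 6. Leaving out 1 library ended the call of Pcdhb3 for 9 of 24 libraries (Q175 F2, F4 and M2, Q20 F2 and F3, and WT F1, M1, M3 and M4), with edgeR adjusted p-values of 0.0503 to 0.157. It did so for Pcdhb20 for 6 (Q175 F3, F4, M2 and M3, and Q20 F3 and F5), at 0.0558 to 0.0755, and for Pcdhb13 for 3 (Q175 F2 and M4, and Q20 F3), at 0.0513 to 0.134.

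Along the cluster the genes called with all libraries do not form 1 block. Pcdhb3 and Pcdhb5 lie near its start, Pcdhb10 and Pcdhb12 to Pcdhb15 in its middle, and Pcdhb17 and Pcdhb20 toward its end. Neighbours between them, such as Pcdhb4 (0.03, SE 0.08) and Pcdhb18 (0.07, SE 0.06), had small fitted changes. Without libraries of low length index Pcdhb9, Pcdhb11 and Pcdhb16 were called too (edgeR adjusted p = 0.0228, 0.0109 and 0.0045). The calls then ran unbroken from Pcdhb9 to Pcdhb17, with Pcdhb3, Pcdhb5 and Pcdhb20 apart from that run. In GENCODE vM21 an exon of Pcdhb12 overlaps one of another gene on the opposite strand, and Pcdhb21 and Pcdhb22 share exon positions, so reads of those genes may not be told apart. The members moved together within groups less closely once libraries of low length index were left out. Over all libraries the median r between pairs of Pcdhb genes was 0.63 (210 pairs, 166 libraries), and without those libraries it was 0.08 (142 libraries). For pairs outside the clusters it went from 0.52 to 0.11. These correlations share libraries and are descriptions only.

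**Figure D3:**
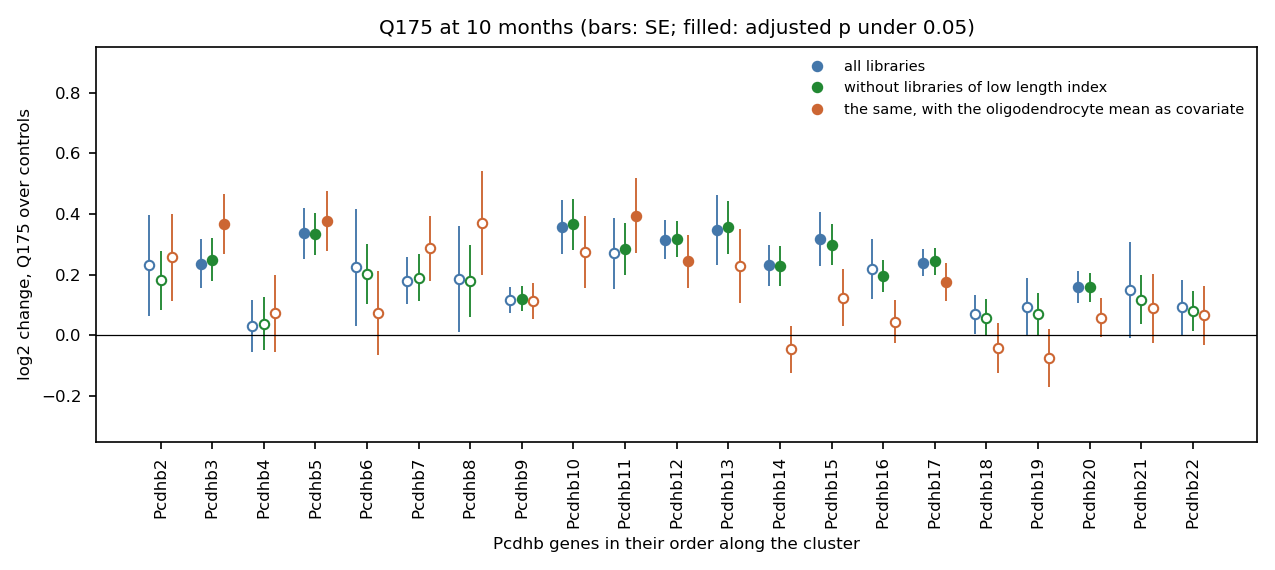
Log2 change of the 21 Pcdhb genes in Q175 over controls at 10 months in their order along the cluster, with SE bars and filled points at adjusted p under 0.05. With all libraries (blue) and after leaving out those of low length index (green) every point lies above 0. In the third fit (orange), with the oligodendrocyte mean as a further covariate, Pcdhb14, Pcdhb18 and Pcdhb19 lie below 0, the lowest at -0.073.

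Outside the clusters the largest change was in Pcdh8, a protocadherin also known as arcadlin, whose mRNA is induced by neuronal activity in rat hippocampus. Its level was 1.95 CPM in the lowest, 2.47 in the median and 3.08 in the highest Q175 library of 10 months. WT libraries spanned 0.721 to 1.69 (median 1.24) and Q20 libraries 0.653 to 1.64 (median 1.12), so no Q175 library overlapped a control. The fitted change was 1.08 on the log2 scale (SE 0.17, 2.12-fold, edgeR adjusted p = 5.24e-06), with a level that remained among the lowest of the members at 0.312 FPKM in WT. In Q140 its level was 1.06 to 1.57 CPM, within the range of the controls. Earlier, Q175 had 1.46 to 2.63 CPM at 6 months (median 1.96) and 1.13 to 2.05 at 2 months (median 1.73), both overlapping the controls. Its call held under all 16 other settings. Exons of Pcdh8, Pcdh10 and Cdh8 overlap exons of other genes on the opposite strand, whose reads cannot be told apart where strand was not used. The partner of Cdh8 was measured and reached at most 0.126 CPM in controls and Q175 at 10 months. Cdh12 shares exon positions with 1 gene of its own strand.

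Pcdh10, also called OL-protocadherin, binds the WAVE regulatory complex that drives actin assembly. Its 8 Q175 libraries of 10 months lay between 40.0 and 45.3 CPM (median 41.8), WT between 28.3 and 39.6 (median 35.4) and Q20 between 32.9 and 41.4 (median 34.9). Only Q20 overlaps them, and 6 of 8 Q175 libraries exceeded every control. The log2 change was 0.23 (SE 0.05, edgeR adjusted p = 0.00043), and the call held under all 16 other settings.

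Cdh8, a type II cadherin of neurons, ran from 49.6 to 60.9 CPM in Q175 at 10 months (median 59.1), from 41.1 to 52.0 in WT (median 46.1) and from 40.9 to 50.4 in Q20 (median 45.9). Here 7 of 8 Q175 libraries exceeded every control. The change was 0.32 (SE 0.06, 1.25-fold, edgeR adjusted p = 0.000157). Q140 stood between, at 49.1 to 59.5 CPM (median 51.9), and its change of 0.24 had an edgeR adjusted p of 0.0766. Cdh20, also type II, moved less: 29.0 to 33.5 CPM in Q175 (median 30.5) against 25.7 to 32.1 in controls (median 27.4), a log2 change of 0.15 (SE 0.04, edgeR adjusted p = 0.00326). The ranges of Cdh20 overlap, although all 8 Q175 libraries lay above the control median.

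Cdh15, or M-cadherin, is known from muscle and from cerebellar granule cells. Its libraries scatter widely, with 36.2 to 68.5 CPM in Q175 (median 54.4) and 29.5 to 54.6 in controls (median 42.6). Of 8 Q175 libraries 6 were above the control median. The fitted change was 0.29 (SE 0.09, edgeR adjusted p = 0.021), and leaving out Q175 library M4 ended the call (0.22, edgeR adjusted p = 0.0966). Granule cell genes moved in these libraries too, with 1 of 12 higher and 3 lower. Cdh12, a type II cadherin also called Br-cadherin, was the member that fell. It ran from 4.82 to 6.85 CPM in Q175 (median 6.28) and from 5.18 to 8.84 in controls (median 7.62), and all 8 Q175 libraries lay below the control median. The log2 change was -0.32 (SE 0.10, edgeR adjusted p = 0.0187). Without Q175 library M3 the edgeR adjusted p was 0.0532, and without M4 it was 0.0654. The low control value of 5.18 came from a WT library of low length index, without which the lowest control was 6.999.

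**Figure D4:**
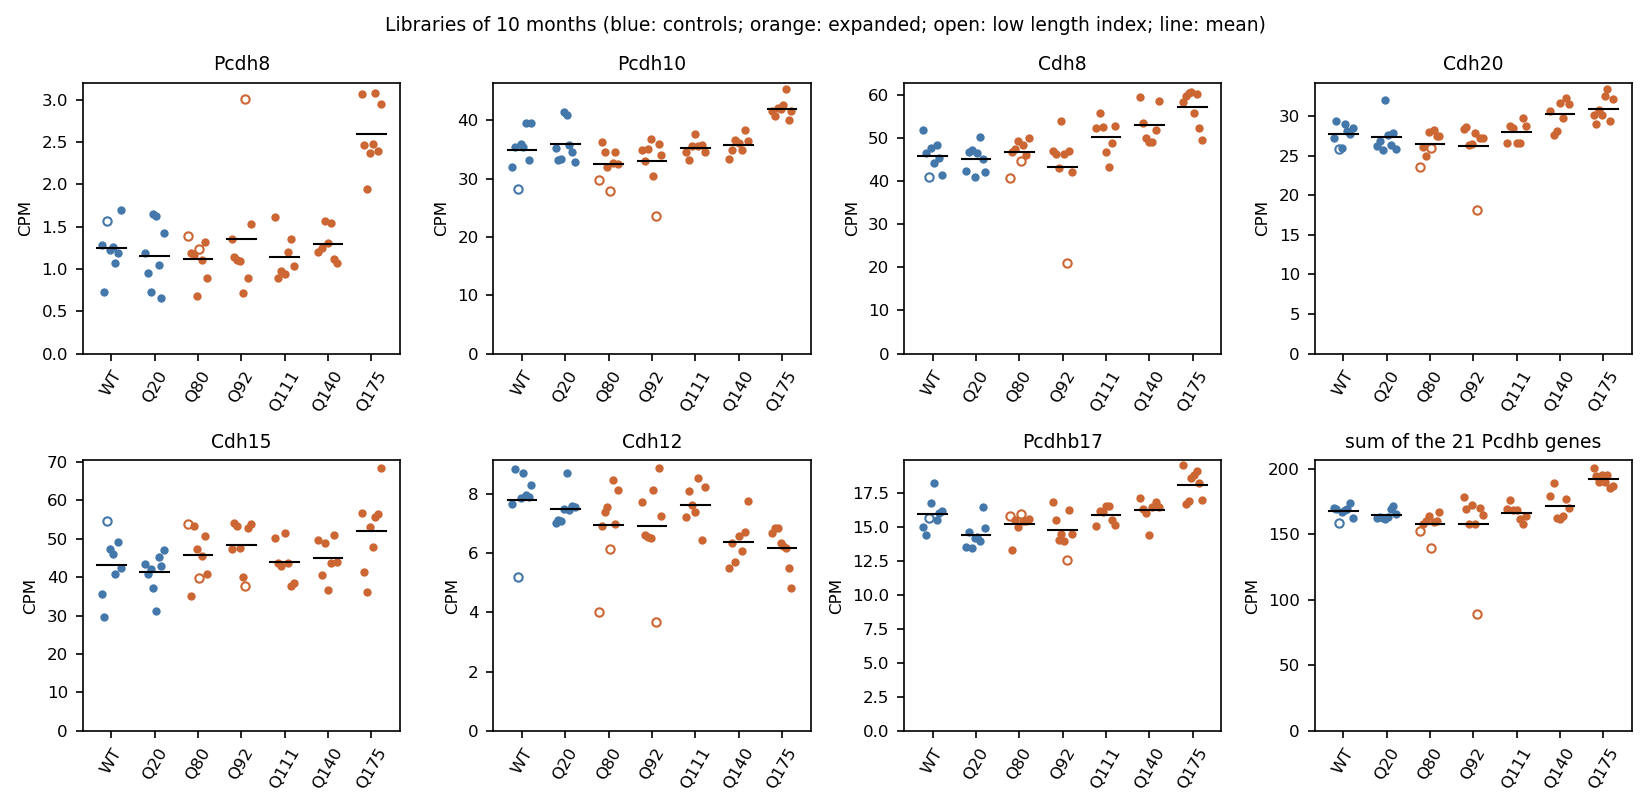
CPM of 7 members and of the summed Pcdhb genes in each library of 10 months by genotype, with the mean as a line and open points for libraries of low length index. For Pcdh8 and for the Pcdhb sum (185.1 to 200.8 CPM in Q175) no control library reaches a Q175 library, and the lowest Pcdhb sum, 89.5, is a Q92 library of low length index.

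Promoter sequence is shown for Pcdh8, Cdh8 and Pcdh10, the 3 genes outside the clusters whose rise had the smallest p-values. It is shown also for Cdh12, the 1 that fell. The letters before a transcription start of genes that moved in the same samples can thus be compared. Each run is the 250 bases before the RefSeq transcription start on build GRCm38.p6, read 5′ to 3′ on the strand of the gene: chr14:79771313-79771562 (minus) for Pcdh8, chr3:45378148-45378397 (plus) for Pcdh10, chr8:99416472-99416721 (minus) for Cdh8 and chr15:21111202-21111451 (plus) for Cdh12. Capitals mark matches, on either strand, to any of 5 motifs. A GC box was searched as GGGCGG and its reverse complement, and the core of a cAMP response element as TGACG in the same way. A TATA box was searched as TATAAA, and the promoter element known as the CCAAT box by those letters. The last was an E-box of the palindromic letters CACGTG.
Pcdh8: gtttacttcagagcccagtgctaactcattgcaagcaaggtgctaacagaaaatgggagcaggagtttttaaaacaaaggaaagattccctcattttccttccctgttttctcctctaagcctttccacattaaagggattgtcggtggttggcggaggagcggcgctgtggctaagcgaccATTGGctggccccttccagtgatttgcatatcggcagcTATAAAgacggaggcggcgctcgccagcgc
Pcdh10: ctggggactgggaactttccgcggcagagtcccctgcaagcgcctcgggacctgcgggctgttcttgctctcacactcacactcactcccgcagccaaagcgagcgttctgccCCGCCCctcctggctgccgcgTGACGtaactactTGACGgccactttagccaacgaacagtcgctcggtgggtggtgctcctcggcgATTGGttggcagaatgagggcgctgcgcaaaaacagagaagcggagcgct
Cdh8: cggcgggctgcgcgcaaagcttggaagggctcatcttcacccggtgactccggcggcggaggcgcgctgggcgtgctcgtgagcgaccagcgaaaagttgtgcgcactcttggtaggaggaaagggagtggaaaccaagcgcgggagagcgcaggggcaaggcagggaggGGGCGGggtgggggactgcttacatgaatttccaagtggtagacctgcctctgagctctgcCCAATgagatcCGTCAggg
Cdh12: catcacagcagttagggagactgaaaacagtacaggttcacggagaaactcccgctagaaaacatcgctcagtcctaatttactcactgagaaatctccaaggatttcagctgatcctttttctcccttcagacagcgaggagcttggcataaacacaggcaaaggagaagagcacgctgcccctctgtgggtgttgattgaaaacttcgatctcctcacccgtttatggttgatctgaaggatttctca

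Among these promoters, that of Pcdh8 holds a TATA box and a CCAAT box in its last 70 bases. Pcdh10 has 1 GC box, 2 cAMP response element cores and 1 CCAAT box. Cdh8 has 1 GC box, 1 such core and 1 CCAAT box. The matches do not overlap each other. None of the 5 motifs is in the Cdh12 window. That window lies before a start inside the gene, which GENCODE vM21 places at chr15:20449265-21589533. The windows of Pcdh8, Pcdh10 and Cdh8 adjoin the annotated start of the gene, so the Cdh12 window is not placed like theirs. Windows on chromosome 18, which holds all the clustered protocadherins and Pcdh1, Pcdh12 and Cdh2, were not used. Among the remaining members, RefSeq promoters were found for 21 (24 windows), none of them a clustered protocadherin. Cdh7 and Pcdh9 each have more than 1 window. Those of Pcdh9 overlap and hold the same cAMP response element core and CCAAT box, so these matches are counted more than once. The GC box was in 9 of the 24 and in 32.7% of 32851 windows of all genes, the cAMP response element core in 4 and in 17.8%, the TATA box in 2 and in 12.4%, the CCAAT box in 14 and in 33.8%, and CACGTG in 1 and in 6.02%. A match is a run of letters and not a measured binding site.

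Several well-known members did not pass the test in Q175 at 10 months with all libraries. N-cadherin had 99.99 to 112.2 CPM in Q175 and 103.3 to 115.3 in controls, a log2 change of -0.03 (SE 0.07). The Pcdhg row differed by -0.01 (SE 0.04) and the Pcdha row by -0.07 (SE 0.03, edgeR adjusted p = 0.063). All 8 Q175 libraries of the Pcdha row, at 157.7 to 174.1 CPM, were below the control median of 174.2, and without libraries of low length index its adjusted p was 0.00809 from edgeR. Cdh5, the VE-cadherin of endothelial cells, differed by -0.17 (SE 0.07, edgeR adjusted p = 0.129), with an adjusted p of 0.00807 without those libraries, and 12 other endothelial genes summed to 292.2 to 360.7 CPM in Q175 and 326.1 to 380.8 in controls. Pcdh19, an X-linked gene mutated in a human epilepsy, differed by less than 0.01 (SE 0.09). Pcdh11x differed by 0.31 (SE 0.14) with an edgeR adjusted p of 0.13. For the cadherins that form the tip link of hair cells, the fitted changes were 0.28 (SE 0.14) for Pcdh15 and -0.43 (SE 0.17) for Cdh23, at edgeR adjusted p-values of 0.192 and 0.09. Both were called once libraries of low length index were left out, with adjusted p-values of 0.0368 and 0.0291 from edgeR.

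Markers of other cells moved in the same libraries. Of 12 oligodendrocyte genes 9 fell in Q175 at 10 months, among them Mobp (-0.58), and 0 rose. Their summed level was 3336 to 4831 CPM in Q175, 4355 to 5838 in WT and 4964 to 6330 in Q20. Of 12 Purkinje cell genes 6 fell, of 12 Bergmann glia and astrocyte genes 6 fell, of 10 molecular layer and Golgi interneuron genes 2 fell, and of 10 microglia genes 2 rose. With libraries of low length index left out, 10 oligodendrocyte, 9 Purkinje cell, 6 glial and 7 interneuron genes fell, and 5 microglia genes and 1 glial gene rose. Of 9 tested genes of brain regions next to the cerebellum 5 fell. The summed level of 10 choroid plexus genes ran from 176.6 to 2491 CPM in Q175 and from 194.4 to 4106 in controls. In whole tissue, fewer cells of a type and less RNA per cell cannot be told apart. With the mean of the oligodendrocyte genes as a covariate, 7 members were called in Q175 at 10 months: Pcdh8, Pcdh10, Pcdh11x, Pcdhb3 and Pcdhb17 higher, Cdh12 and the Pcdha row lower. Cdh8 then had a log2 change of 0.14 with an edgeR adjusted p of 0.251. With this covariate, and leaving out libraries of low length index, 15 were called, among them Cdh8 (0.21, edgeR adjusted p = 0.00929), Cdh20, Pcdhb5 and Pcdhb12. Calls over all genes in the fits with this covariate are not given here, so these counts describe members only. The part of cell composition in these changes was not tested further.

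The other lines gave no such calls. In Q80, Q92, Q111 and Q140, 0 of 55 members passed the edgeR test at 2, 6 or 10 months, with 0 to 13 members per comparison at an unadjusted p under 0.05 (13 in Q80 and 8 in Q140 at 10 months). Over all genes the share called in these lines was 0% for Q80 at each age, 0.0424%, 0% and 0.817% for Q92 at 2, 6 and 10 months, 0%, 0.0182% and 0.115% for Q111, and 0%, 0.0363% and 0.635% for Q140. DESeq2 called 2 members in Q140 at 10 months and limma 0. Without libraries of low length index Cdh8 (0.23, edgeR adjusted p = 0.00191) and Cdh20 (0.13, edgeR adjusted p = 0.02) were higher and Cdh12 (-0.29, edgeR adjusted p = 0.0113) lower in Q140 at 10 months, beside 2.43% of all genes. These 3 were also called, in the same directions, in Q175 at that age, against the same controls.

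Q175 mice of 2 months had 0 members called, 1 with an unadjusted p under 0.05, beside 0.00605% of all genes called by edgeR, and DESeq2 and limma called 0 members as well. At 6 months the 1 member called was Cdh8, which was higher, beside 2.07% of all genes in that direction. Its 8 Q175 libraries, at 53.2 to 59.6 CPM (median 57.9), all exceeded the 16 controls, at 22.1 to 51.8. The change was 0.30 on the log2 scale with an edgeR adjusted p of 0.0495. Cdh7, a type II cadherin, also did not overlap at 6 months: 61.8 to 68.6 CPM in Q175 against 17.2 to 61.0 in controls, a log2 change of 0.29 with an edgeR adjusted p of 0.327. The low control values of both genes came from Q20 libraries of low length index. Without such libraries 9 members were higher, beside 6.8% of all genes in that direction: Cdh7, Cdh8, Cdh18, Cdh19, Cdh20, Pcdh10, Pcdh11x, Pcdhb15 and Pcdhb16, of which 6 were also called at 10 months. WT and Q175 libraries of 6 months carry another name format than the rest, which entered the fit, so Q175 is set there against WT and Q80 to Q140 against Q20, of which 2 of 8 libraries have a low length index. Q20 against WT cannot be told apart from that format.

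As a number, CAG length (Q) gave related results. At 2 months 0 members were associated with Q in edgeR, DESeq2 and limma (2 at an unadjusted p under 0.05, beside 0.0303% of all genes called), at 6 months 5 were, all positively (2.67% of all genes in that direction), and at 10 months 10 positively (3.66%) and 1 negatively (4.34%). With 6 and 10 months combined by their Z values, 18 members were positively and 1 negatively associated with Q, where 7.62% and 9.41% of all genes were. Of these 19, 13 were among the 15 called in Q175 at 10 months, from overlapping libraries. Cdh8 led with Z = 6.10 (adjusted p = 8.22e-08), with slopes of 0.19 (SE 0.04) per 100 CAG at 6 months and 0.19 (SE 0.04) at 10 months from edgeR. Cdh20 (Z = 4.78), Pcdhb17 (4.75), Pcdhb12 (4.60), Pcdhb15 (4.56), Pcdh10 (4.55) and Pcdh8 (4.19) followed. The other 11 positive associations were Pcdhb14, Pcdhb13, Pcdhb16, Cdh7, Pcdh11x, Pcdhb20, Pcdhb11, Pcdhb5, Pcdhb10, Cdh15 and Pcdh15, with Z from 3.68 to 2.85. Cdh23 was the negative one, with Z = -3.21 (adjusted p = 0.0123 from the combined edgeR slopes). Without libraries of low length index 21 were positive and 6 negative, beside 15.2% and 15.1% of all genes, and all 19 were kept.

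Fewer associations were called without the longest repeat. When the Q175 libraries were left out, 1 of the 19 members, Cdh8, was still associated with Q in the combined data, and 0 members at 10 months alone. Calls fell over all 16525 genes as well. In the combined data they went from 1259 positive and 1555 negative to 95 and 57. At 10 months alone they went from 605 and 718 to 21 and 15. With libraries of low length index kept, the median Pcdhb slope at 10 months was 0.074 per 100 CAG, and 0.0048 without Q175. At 6 months it was 0.093, and 0.16 without Q175. Leaving out both Q175 and the libraries of low length index gave median slopes of 0.026 at 10 months and 0.058 at 6 months. The fits of the 2 ages are not alike. At 6 months the library name format was in the fit, and without Q175 only WT carries its own format. That slope then rests on Q20 to Q140, and 2 of 8 Q20 libraries of 6 months have a low length index. The slopes without Q175 are therefore not compared between ages. With the oligodendrocyte mean as a covariate 6 members were called in the combined data, of which 3 were among the 19. Calls over all genes in that fit are not given here. The slope at 10 months was compared directly with that at 2 months: 0 members passed that edgeR interaction test, 8 with an unadjusted p under 0.05, beside 0.52% of all genes, and DESeq2 and limma called 0. Without libraries of low length index 3 did, all with a larger slope at 10 months, beside 1.3% of all genes in that direction, namely Pcdhb5 (difference 0.31 per 100 CAG, edgeR adjusted p = 0.0016), Cdh8 (0.15, edgeR adjusted p = 0.0285) and Pcdhb17 (0.13, edgeR adjusted p = 0.0429).

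With age in the controls, the members moved in both directions, and single Pcdhb genes went opposite ways. Between 2 and 10 months 20 members were higher and 4 lower in the edgeR fit, while 14.5% and 20.8% of all genes were. Pcdhb9 had the smallest p. Its 16 control libraries spanned 10.1 to 15.1 CPM at 2 months (median 12.9) and 14.3 to 18.1 at 10 months (median 16.4), overlapping only at the edges, a log2 change of 0.35 (SE 0.04, 1.27-fold, edgeR adjusted p = 2.05e-08). Markers of other cells also differed with age: of 12 granule cell genes 8 fell and 0 rose (10 without libraries of low length index), and of 10 microglia genes 7 rose and 0 fell (10 without those). The granule cell genes summed to 5534 to 6711 CPM in WT and 5650 to 6760 in Q20 at 2 months, and to 5321 to 6331 and 5029 to 5989 at 10 months. For microglia the sums were 128.6 to 216.2 CPM in WT and 126.7 to 162.7 in Q20 at 2 months, and 167.8 to 221.9 and 172.6 to 214.6 at 10 months. Their part in the changes with age was not tested. Pcdhb10 fell: its range was 2.42 to 5.11 CPM at 2 months (median 4.25) and 2.74 to 3.998 at 10 months (median 3.53), a log2 change of -0.31 (SE 0.08, edgeR adjusted p = 0.00229). Its rise in Q175 was opposite in sign to its change with age.

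Cdh15 fell with the smallest p, with 46.7 to 75.4 CPM at 2 months (median 57.3) and 29.5 to 54.6 at 10 months (median 42.6), a log2 change of -0.44 (SE 0.07, edgeR adjusted p = 5.75e-06). Cdh22, or PB-cadherin, fell by 0.25 on the log2 scale and Pcdhb7 by 0.16. N-cadherin was slightly higher at 10 months: 84.3 to 107.7 CPM (median 101.1) became 103.3 to 115.3 (median 110.0), a log2 change of 0.14 (SE 0.04, edgeR adjusted p = 0.00252). Pcdhb12 (0.26), the Pcdha row (0.16), Pcdhb13 (0.28) and Pcdhb14 (0.32) were among those that rose. Pcdhb2 rose: it had 0.142 to 2.39 CPM at 2 months (median 1.71) and 1.36 to 3.44 at 10 months (median 2.95), a log2 change of 0.89 (SE 0.25), and Cdh12 rose by 0.43 (SE 0.12).

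At 2 months 4 of 8 WT libraries had a low length index, and the balance of directions changed without them. Without libraries of low length index 15 members were higher and 9 lower with age, beside 16.1% and 18.6% of all genes, and 18 of the 24 calls were kept. Pcdhb17 (-0.21), Pcdhb18 (-0.21), Pcdhb20 (-0.15) and Pcdhb22 (-0.20) joined those that fell, together with Pcdh20. Pcdhb2 then had a log2 change of 0.62 (SE 0.09) and Pcdhb10 one of -0.42 (SE 0.06). Within the Pcdhb cluster 7 genes then rose and 6 fell. With the length index as a covariate instead, 9 members were higher and 15 lower. Pcdhb9, Cdh15, Pcdhb10, Cdh2 and Pcdhb2 kept their direction and call in all 3 fits.

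**Figure D5:**
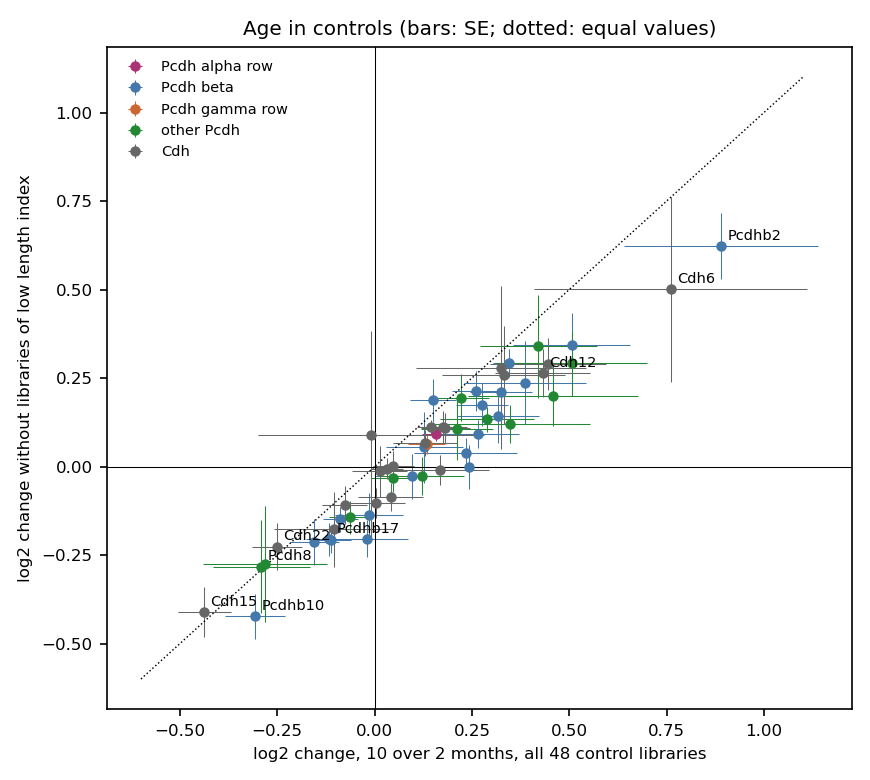
Log2 change from 2 to 10 months in WT and Q20 controls for each member, with all control libraries (x axis) and without those of low length index (y axis), with SE bars and a dotted line of equal values. Most points lie below the dotted line, as Pcdhb2 does at 0.89 and 0.62, and Cdh15 and Pcdhb10 are lower with age on both axes.

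Between the sexes 2 members differed over all ages and genotypes, beside 3.39% of all genes. Cdh23 was lower in males (log2 -0.31, SE 0.07, edgeR adjusted p = 0.00188), with medians of 1.47 CPM over 83 males and 1.83 over 83 females and full overlap of the ranges. Pcdh12, an endothelial protocadherin, was higher in males (0.30, SE 0.07, edgeR adjusted p = 0.00229), with medians of 0.692 and 0.565 CPM. Without libraries of low length index 12 members differed, beside 9.2% of all genes, by at most 0.26 on the log2 scale.

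Genes around the cadherins were counted in lists. Of 24 regulators of clustered protocadherin promoters, such as the insulator protein Ctcf and the cohesin subunits, 1 rose in Q175 at 10 months and 0 fell, where 5.6% of all genes rose and 7.16% fell. It was Ehmt2, a histone H3 lysine methyltransferase (0.18, edgeR adjusted p = 0.049). In the combined association with Q 3 of the 24 were positive and 0 negative, beside 7.62% and 9.41% of all genes. They were the cohesin genes Rad21 (Z = 3.67), Pds5b (3.20) and Smc1a (2.70). Of 16 catenins and junction partners 2 rose and 0 fell, namely Ctnna2 (0.12), the neuronal alpha-catenin, and Ctnnd2 (0.13), or delta-catenin. Of 16 protocadherin signalling partners 2 rose and 1 fell. Marcks, an actin-binding substrate of protein kinase C, rose by 0.80 (edgeR adjusted p = 2.04e-09), Fyn by 0.12, and the focal adhesion kinase relative Ptk2b fell by 0.40. Of 11 proteases of cadherin cleavage 2 rose, among them Adam17 (0.11), and 0 fell. Of 17 tested genes of the wider cadherin superfamily, Dsc2, a desmosomal cadherin, rose by 1.22, and Clstn2 (-0.94), Cdhr3 (-0.73), Cdhr4 (-0.69) and Ret (-0.16) fell. When libraries of low length index were left out, 12.9% of all genes rose and 13.3% fell. Then 3 regulators rose and 0 fell, 3 catenins and junction partners rose and 1 fell, and 5 signalling partners rose and 1 fell. Among proteases 3 rose and 2 fell, and among superfamily genes 2 rose and 4 fell. With all libraries the median log2 changes of these lists lay between -0.05 and 0.07, beside -0.00497 for all genes.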

How the data were processed

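Cerebellar mRNA of 166 mice was analysed. The authors deposited expected counts (estimated counts per gene, 83.3% of them whole) and, from the same mice, FPKM. In the submitters' processing notes the tool listed is CASAVA 1.8.2. For the aligner, the counting program, strand and the genome build the entry is: not given in the sources used here. Reads shared by near-identical or overlapping genes are therefore uncertain. Exons of 12 of the 55 members overlap those of other genes in GENCODE vM21, 7 of them on the opposite strand, among them Pcdh8, Pcdh10 and Cdh8.

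Symbols were found for 37607 of 39179 genes. Counts were rounded to whole numbers, and 16525 genes with at least 0.5 CPM in at least 8 libraries entered edgeR 4.0.16 under R 4.3.3. TMM size factors were used, the quasi-likelihood test was two-sided, and p-values were adjusted by Benjamini-Hochberg with a threshold of 0.05. Each age was fitted separately with sex as covariate and, at 6 months, the library name format, with WT and Q20 pooled as controls after the methods of the study. For slopes CAG length was 7 in WT. For the combined slope, the sum of the 6- and 10-month Z values was divided by the square root of 2. The SE is the log2 change over the square root of F. limma 3.58.1 on log2(FPKM + 0.1) and log2(FPKM + 1), DESeq2 1.42.0, other size factors, no filter, other controls, covariates, a replicate block and subsets of libraries were alternatives. The test was also run on simulated counts that hold no effect of the length index. Its outcome is not reported here and is not used for the calls above. Each library is 1 mouse, so the tests set differences between groups against the spread between mice. That spread includes differences between libraries, such as those in the length index. At these depths 1 CPM stands for 23.4 to 43.1 counts in a library. All columns of the tables were matched to samples.

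The members and gene lists were chosen with earlier results of these data known. Named genes are the members called in Q175 at 10 months or in the combined slope, the members with the smallest p for age (up to 8 in each direction), the 6 highest and 3 lowest in FPKM, and Cdh2, Cdh5, Pcdh10, Pcdh11x, Pcdh19, Pcdh15, Cdh23 and Pcdhgc4. Other members were named after their values were seen. Promoter sequences are from RefSeq. Values of some genes of the lists are not reported here.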

Additional observations from a re-analysis of the deposited data

Results flagged for a closer look

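Among 42 groups checked at 10 months (5 members and the Pcdhb sum in 7 genotypes), 6 held a library far from the others, where chance gives about 1 in 20. Of these, 4 were the same library, Q92 library M2, which has a low length index. It had 3.01 CPM of Pcdh8 against a group median of 1.12, 21.2 CPM of Cdh8 against 46.4, 5.83 CPM of Pcdhb12 against 10.3, and 89.5 CPM of summed Pcdhb genes against 166.9. For Pcdh8 this places it within the range of Q175. The other 2 were low values of Pcdhb17, 13.3 CPM in Q80 library F2 and 14.4 CPM in Q140 library M1, against group medians of 15.5 and 16.5.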

How the results depend on the processing

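Counts of members called changed without Q175, without low-length libraries (those of low length index) and with the oligodendrocyte mean added. All 15 calls of Q175 at 10 months were among the calls made without those libraries. Of 918 values of single genes under the alternatives, 743 kept direction and call, 167 lost the call and 8 reversed. Over all genes, Q175 against controls at 10 months gave 2110 calls with all libraries and 4327 without those. For most other alternatives calls over all genes are not given here. The counts below therefore do not show whether members changed more than other genes. The 3 combinations of 2 changes were chosen after seeing the data. The 2-month groups hold most libraries of low length index. Members under about 1 CPM (Cdh9, Pcdh12) had few counts in a library, and what size of change could be detected there was not tested. Causes of the changes below were not tested.

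In Q175 at 10 months 15 members were called. The count was 26 without libraries of low length index, 23 with the length index as a covariate, 9 with WT alone as controls, 7 with the oligodendrocyte mean as a covariate, and 12 to 16 when 1 library was left out. At 6 months 1 was called, against 0 with other size factors, 0 without a filter, 0 with limma at either pseudocount, 2 with DESeq2, 5 without the library format, 9 without libraries of low length index, 6 with the length index, 9 without libraries of low connectivity, and 5 without low-length libraries plus the oligodendrocyte mean. In Q140 at 10 months 0 became 2 with DESeq2, 2 with the length index, 2 without low connectivity, 3 without low-length libraries and 1 with the oligodendrocyte mean added. In Q92 at 10 months the oligodendrocyte mean gave 1.

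The 10-month slope had 11 calls and 9 to 12 when 1 library was left out. It had 22 without low-length libraries, 19 with the length index, 20 without low connectivity, 3 with the oligodendrocyte mean, 6 with both changes, 0 without Q175, and 1 without Q175 or low-length libraries. The 6-month slope had 5, and in the same order 13, 9, 12 and 1, then 0 without Q175, 0 without WT, 0 without Q175 or low-length libraries, 3 without a filter and 2 with limma at either pseudocount. Without WT, the library name format at 6 months marks Q175 alone. The 6-month slopes without WT and without Q175 thus both rest on Q20 to Q140. The combined slope had 19, against 6 with the oligodendrocyte mean, 1 without Q175 and 3 without Q175 or low-length libraries. The slope difference went from 0 to 3 without low-length libraries, 2 with the length index, 7 without low connectivity, 1 with the oligodendrocyte mean, 4 with both, and 1 without WT. For sex the count of 2 became 12, 10, 10, 4 and 15 under the same first 5 changes.

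Reversals were seen with the oligodendrocyte mean. Pcdhb14 in Q175 at 10 months became -0.033, and -0.045 without low-length libraries too. In the combined slope Z became -0.43 and -0.49 for Pcdhb14, -0.18 for Pcdhb16, -0.42 for Pcdhb20 and -0.48 for Cdh7. Without Q175 or low-length libraries Z was -0.62 for Pcdh11x.

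With a replicate block 14 members were called in Q175 at 10 months, 0 at 6 months and 3 in the 6-month slope. With the replicate block and without low-length libraries the counts were 27 and 9 in Q175 at 10 and 6 months, 3 in Q140 at 10 months, 20 and 12 for the 10- and 6-month slopes and 3 for the slope difference. Libraries of the same number deviated together little or not at all (median r of 0.05, -0.02 and -0.02 at 2, 6 and 10 months). Other pairs had medians of 0.006, 0.005 and 0.008. At 2 months 76 of 162 same-number pairs had r over 0.1, against 44 of 168 at 6 and 39 of 151 at 10 months. The numbers were not read as pairs.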
